A study of Rattus norvegicus with 21 samples.

Results

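Gene expression in the anterior pituitary gland of sham treated male ACI rats was compared with that of sham treated male COP (Copenhagen) rats. The comparison was defined by strain and treatment alone and took the 3 arrays titled ACI control and the 3 titled COP control, 6 of the 21 arrays in the series. All 31042 probe sets of the Affymetrix Rat Genome 230 2.0 array that are not Affymetrix controls entered it. All 6 rats carried empty silastic implants from 9 to 21 weeks of age and received BrdU, a thymidine analog that labels dividing cells, at 50 mg/kg 4 hours before death. ACI rats came from Harlan and COP rats from Charles River, so supplier and strain cannot be told apart. The remaining arrays were of 4 ACI, 4 COP and 4 Brown Norway (BN) rats that received 5 mg of diethylstilbestrol (DES), a synthetic estrogen, for 12 weeks, and of 3 sham treated BN rats. They entered the estimate of the spread between arrays, which was shared by all 6 groups, and all but the BN rats given DES were also used to describe the same probe sets further. The submitters describe the arrays as biological replicates, although their remarks on some samples give a smaller number of independent animals, by 1, than the arrays of the group. Each array was treated as 1 rat here, and the p values measure only the spread between arrays within the 6 groups, part of which may be technical.

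The anterior pituitary gland holds endocrine cells that secrete prolactin, growth hormone, the gonadotropins, thyrotropin and corticotropin. ACI is an inbred strain derived in part from Copenhagen stock, and pituitary growth in response to estrogens differs between inbred rat strains. A comparison of untreated glands shows the expression differences that the strains carry without added estrogen.

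Values are signals, the brightness of a probe set on a linear scale after the authors had scaled each array. Differences are ACI minus COP on log2(signal + 16), given ± the standard error, and folds are 2 to the power of the size of that difference, which understates the change of dim genes. Adjusted p values are from limma with Benjamini-Hochberg adjustment over all 31042 probe sets, and those with an adjusted p under 0.05 are referred to as called. Array medians were between 141.25 and 144.8 in both strains. ACI control 3 stood apart at the bright end, with a highest signal of 49236 against 25261 to 34885 on the other 5 arrays. Its cre spike-in signal, from RNA added to each sample in a fixed amount, was 31414 against 16274 to 25530. The ratio of 3′ to 5′ actin signal, a measure of RNA integrity, was 3.92 to 4.48 in ACI and 3.38 to 4.01 in COP. Without ACI control 3, 216 probe sets were called, which included 161 of the 230 called with all arrays.

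In all, 230 probe sets, or 0.741% of those tested, were called. Of these, 120 were higher in ACI (0.387%) and 110 were lower in ACI (0.354%). The difference was at least 2-fold for 131 of them, and its median size was 1.10. The 3 ACI and 3 COP signals did not overlap for 227 of the 230, whereas they did not overlap for 15% of all probe sets. Genes named below for the largest differences had to meet this condition, so it is no further evidence for them. By 1 probe set per gene, the brightest one, 123 of 14217 genes (0.865%) were called, 66 higher (0.464%) and 57 lower (0.401%) in ACI. A total of 58 called probe sets had no single gene symbol. The most negative difference of all, -4.06 ± 0.20, was that of a probe set without a gene name, whose signals were 49.2, 61.9 and 63.5 in ACI and 1427.6, 1153.3 and 1097.7 in COP. The number of calls fell to 137 without ACI control 1, to 147 without ACI control 2, to 153 without COP control 1 and to 135 without COP control 2. With only the 6 ACI and COP control arrays in the fit, which then estimated the spread from them alone, 128 probe sets were called, 113 of them among the 230. A set of 101 probe sets was called with all arrays and without each of the 6 in turn.

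**Figure D1:**
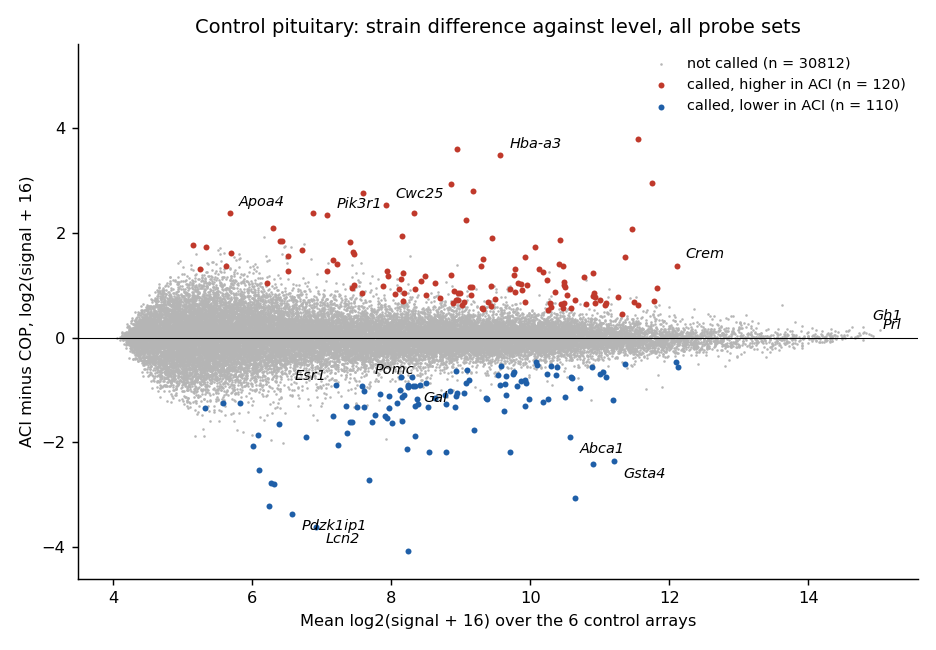
Each point is 1 of 31042 probe sets, with the mean log2(signal + 16) over the 6 control arrays on the x axis and the ACI minus COP difference on the y axis. Red points mark the 120 called higher in ACI, blue points the 110 called lower in ACI, and Prl and Gh1 at the bright end lie near 0.

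The genes for the pituitary hormones did not pass the test in either direction. In whole glands, fewer cells of a type and less RNA per cell cannot be told apart. The Prl signal, for prolactin, was 24379.6, 32914.9 and 39379.0 in ACI and 29653.3, 31742.3 and 31353.5 in COP. The ACI arrays spanned the COP arrays on both sides, and the difference was 0.03 ± 0.21, with a 95% interval of -0.39 to 0.46. Gh1, for growth hormone, differed by 0.20 ± 0.21 (-0.24 to 0.63). Cga, for the subunit shared by the glycoprotein hormones, differed by 0.08 ± 0.20 (-0.34 to 0.50). The genes for the hormone-specific subunits differed by -0.07 ± 0.14 for Lhb, -0.19 ± 0.13 for Fshb and -0.05 ± 0.19 for Tshb. The brightest probe set of Pomc, which encodes the corticotropin precursor, was dim on all 6 arrays (83.8 to 265.0). Its interval of -1.53 to 0.76 was wide, and how well it reads the level of Pomc RNA was not tested. ACI control 3 gave the highest signal of the 6 arrays for Prl, Gh1, Cga and Tshb, as it did for the cre spike-in, and the part of brightness in these values was not tested. These genes also lay near the top of the arrays, as on ACI control 1, where Prl read 24379.6 and the highest signal was 25261. Whether such signals still follow the amount of RNA was not tested, so the intervals may not bound the difference in RNA. The exact two-sided permutation test of 3 against 3 arrays cannot give a p under 0.1, and it gave 0.8 for Prl. The hormone genes other than Pomc were thus among the brightest of the array in both strains, whereas Oxt, the oxytocin gene of the neighboring neural lobe, read 11.7 to 54.7 in ACI and 81.6 to 229.6 in COP.

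Esr1, which encodes the estrogen receptor alpha, also failed the test, at 66.2, 115.5 and 22.6 in ACI and 135.7, 98.1 and 53.3 in COP (-0.51 ± 0.63). The strains overlapped, and the interval of -1.81 to 0.79 allows a difference of more than 2-fold in the direction of COP. The genes of the Ept7 interval, a locus of the rat genome that controls pituitary growth under estrogens, did not pass either. Myc, a transcription factor of cell growth, was at 185.6, 184.6 and 115.0 in ACI and 153.4, 134.7 and 71.0 in COP (0.42 ± 0.26, adjusted p = 0.81). Pvt1, a noncoding RNA gene next to Myc, differed by -0.10 ± 0.29, and A1bg, a plasma glycoprotein gene with signals of 2.3 to 56.6, by 0.47 ± 0.53.

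The gene with the most positive difference was Hba-a3, which encodes an alpha-globin chain of hemoglobin. Its signal was 1952.3, 2303.6 and 3557.2 in ACI and 255.6, 279.7 and 131.2 in COP. All ACI arrays exceeded all COP arrays, and the difference of 3.48 ± 0.28 corresponds to 11.1-fold (adjusted p = 7.22e-08). Of 7 probe sets for alpha- and beta-globin genes, 2 were called, next to 0.741% of all probe sets. The other called one is assigned to more than 1 beta-globin gene and read 8160.8, 11581.9 and 14282.0 in ACI against 1129.5, 786.1 and 547.3 in COP (3.79 ± 0.46). The remaining 5 of these 7 were bright in both strains and differed by 0.03 to 0.16. Hbz, a further globin gene outside this set, was dim, with means of 5.2 in ACI and 8.3 in COP. Its difference of -0.135 was not called. Hbb, for a beta-globin chain, was at 13575.6, 18439.3 and 23663.1 in ACI and 19968.5, 18391.2 and 15053.5 in COP. Alas2, the erythroid enzyme that starts heme synthesis, was at 417.8 to 552.9 in ACI and 436.1 to 731.5 in COP (-0.16 ± 0.37). None of the 5 other red blood cell markers measured passed the test, and the summed signal of all 6 was 16055 to 27863 in ACI and 15635 to 21047 in COP. Globin genes are close copies of each other, so which of them a probe set reads is uncertain.

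Lcn2, Gsta4 and Abca1 were lower in ACI, and Apoa4 and Isca1 were higher. Lcn2 encodes lipocalin 2, a secreted protein that binds iron carriers of bacteria. Its signal was 7.1, 26.4 and 26.6 in ACI and 377.1, 399.2 and 450.7 in COP. The ACI values lay below 67.0, the 40th percentile of the dimmest array, and all COP values lay far above it. The difference was -3.61 ± 0.32 (adjusted p = 3.54e-07). Gsta4, a glutathione transferase that clears aldehydes from oxidized lipids, read 1134.2, 1083.4 and 882.7 in ACI and 4682.5, 5222.1 and 6260.4 in COP. Both strains were well above the dim range, and ACI was 5.14-fold lower (-2.36 ± 0.17, adjusted p = 1.05e-08). It was the only called member among 33 measured glutathione and detoxification enzymes, next to 0.865% of all genes, and the median difference of these enzymes was -0.07. Abca1, which exports cholesterol from cells, read 774.4, 560.5 and 1074.6 in ACI and 2959.4, 2897.1 and 2907.6 in COP (-1.89 ± 0.19, adjusted p = 2.13e-06). Of its 3 other probe sets, 1 was called in the same direction. Apoa4, an apolipoprotein gene, went the other way, with 87.4, 90.9 and 126.2 in ACI and 9.8, 4.4 and 5.6 in COP (2.37 ± 0.50, adjusted p = 0.0194). Its call was lost without any 1 of the 6 arrays, with adjusted p values of 0.0594 to 0.101. Isca1, an assembly factor of iron-sulfur clusters chosen after its values were seen, was higher in ACI by both of its probe sets. It read 2583.6, 2439.7 and 2744.8 against 1019.6, 1086.7 and 1403.2 by the brighter one (1.15 ± 0.13).

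**Figure D2:**
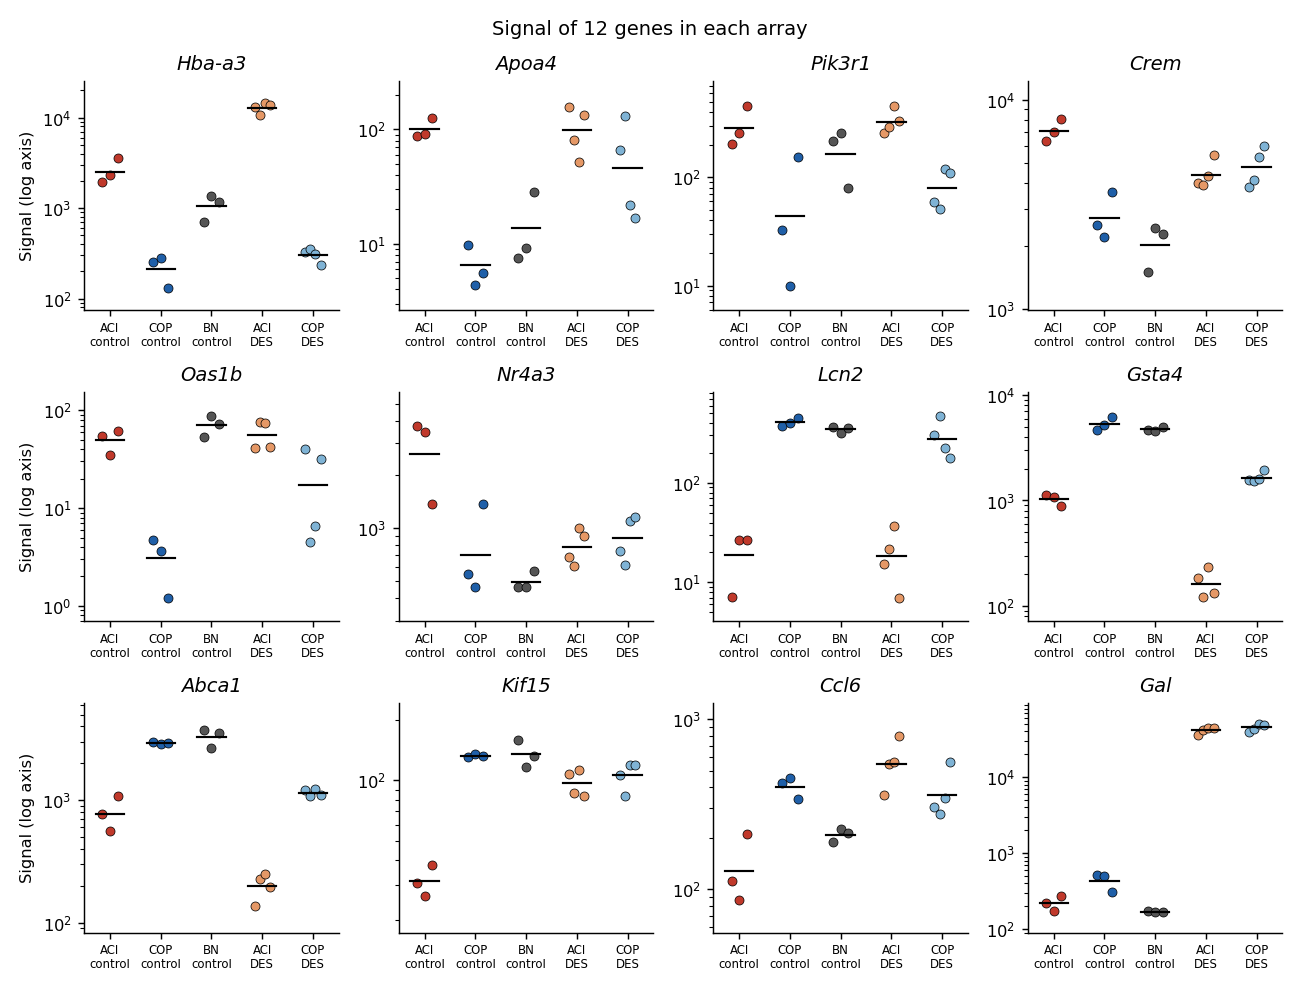
Each panel plots the signal of 1 gene on a log axis, with 1 point per array for ACI, COP and BN controls and for ACI and COP after DES, and a line at the mean taken on log2(signal + 16). ACI and COP controls do not overlap for 11 of the 12 genes, the exception being Nr4a3, where ACI control 3 and COP control 3 nearly coincide. Most of the 12 were named only if these arrays did not overlap, so their separation was set by the choice.

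Crem, Nr4a3 and Rgs2, which take part in the response of cells to hormones, were higher in ACI. Crem encodes a transcription factor that binds cyclic AMP response elements. Its brightest probe set read 6318.3, 6990.0 and 8061.9 in ACI and 2512.9, 2210.3 and 3637.4 in COP. The strains did not overlap, and the difference of 1.37 ± 0.24 (2.59-fold, adjusted p = 0.00376) kept its call without each array in turn. Of its 5 other probe sets, 3 were called in the same direction, with differences of 0.96, 1.30 and 2.24. Nr4a3, an orphan nuclear receptor that is induced within minutes by hormones, was the only called member of 18 immediate early genes, next to 0.865% of all genes. It read 3749.3, 3488.7 and 1360.3 in ACI and 548.2, 461.5 and 1363.9 in COP (1.87 ± 0.35, adjusted p = 0.00708). ACI control 3 and COP control 3 had almost the same value, and the call was lost in 4 of the 6 fits that left out 1 array (ACI 1, ACI 2, COP 1 or COP 2), with adjusted p values of up to 0.0788. Rgs2, which shortens signaling by G proteins and was chosen after its values were seen, read 3480.8, 2986.4 and 3166.1 in ACI and 1989.9, 1808.1 and 1814.4 in COP (0.77 ± 0.14).

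The rest of the immediate early list varied between arrays of the same strain. Its median difference was 0.47, against -0.01 for all genes, and 15 of 18 members lay above 0, but the ACI and COP arrays were apart for none of them, next to 16.5% of all genes. Fos read 1575.2, 4415.7 and 629.3 in ACI and 325.8, 1010.6 and 6338.5 in COP. The single highest value was thus in COP control 3, and the same held for Nr4a1, at 6462.4 against 894.7 and 711.2 in the other COP arrays. The summed signal of the list was 14506 to 36741 in ACI and 10674 to 33167 in COP. The part of this variation in the Nr4a3 and Crem values was not tested. For Crem, COP control 3 was the highest COP array as well, but it stayed below every ACI array.

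The stretch just upstream of the gene start is shown for Crem and Rgs2, which were higher in ACI, and for Kif15, which was lower in ACI. The letters are those of RefSeq on the GRCr8 assembly, a BN genome, and not of ACI or COP. Capitals mark the 5-base core of the cyclic AMP response element, TGACG, or CGTCA on the other strand, a motif chosen after the values were seen. Each stretch holds the 250 bases before the annotated start, 5′ to 3′ in the direction of the gene, at chr17:58933816-58934065 (+ strand), chr13:58352667-58352916 (- strand) and chr8:131479154-131479403 (+ strand).
Crem: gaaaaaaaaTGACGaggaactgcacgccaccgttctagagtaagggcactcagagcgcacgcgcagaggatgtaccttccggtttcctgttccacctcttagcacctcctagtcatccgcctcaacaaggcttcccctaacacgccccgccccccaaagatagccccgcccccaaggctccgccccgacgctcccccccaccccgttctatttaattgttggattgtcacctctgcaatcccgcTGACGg
Rgs2: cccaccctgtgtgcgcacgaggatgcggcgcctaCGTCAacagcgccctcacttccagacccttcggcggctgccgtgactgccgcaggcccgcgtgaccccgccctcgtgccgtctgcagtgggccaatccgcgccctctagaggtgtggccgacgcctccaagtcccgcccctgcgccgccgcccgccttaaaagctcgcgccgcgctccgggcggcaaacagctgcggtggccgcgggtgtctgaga
Kif15: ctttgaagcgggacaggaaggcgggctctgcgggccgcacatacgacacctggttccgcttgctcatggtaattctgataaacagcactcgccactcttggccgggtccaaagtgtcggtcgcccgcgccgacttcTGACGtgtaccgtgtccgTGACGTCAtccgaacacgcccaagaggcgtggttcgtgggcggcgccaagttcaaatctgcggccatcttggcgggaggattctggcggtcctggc

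The core occurs at 2 places for Crem, 241 and 6 bases before the start, and at 1 place for Rgs2, 216 bases before it. Kif15 holds it at 2 places, 114 and 96 bases before the start, the latter as the whole palindromic site TGACGTCA. The core was in the same window of 25.7% of 11734 genes on the array, in 40.4% of the 57 genes called higher in ACI that had a window and in 25% of the 52 called lower. The whole site, which contains the core, was in 2.62%, 7.02% and 3.85% of these windows. Nr4a3 had no window in the table. A match of letters describes the sequence and does not show that a factor binds there.

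Several enzymes and regulators of signaling differed between the strains. Pik3r1, the regulatory subunit of phosphoinositide 3-kinase, read 200.8, 257.5 and 456.8 in ACI and 32.8, 10 and 154.8 in COP (2.34 ± 0.49, adjusted p = 0.0175). No COP array reached the lowest ACI array, but the call was lost in 4 of the 6 fits without 1 array (ACI 2, ACI 3, COP 1 or COP 2), with adjusted p values of up to 0.17. Ip6k2, an inositol phosphate kinase, read 2415.8, 2830.7 and 1693.1 against 855.1, 949.6 and 800.2 (1.37 ± 0.21, adjusted p = 0.000685). Drg1, a GTP-binding protein gene, read 1077.5, 995.6 and 1096.4 against 340.4, 267.3 and 532.8 (1.49 ± 0.27), with an adjusted p of 0.0545 without COP control 2. Dtx1, a ubiquitin ligase of the Notch pathway, read 427.9, 507.8 and 350.3 against 173.1, 212.7 and 136.6 (1.23 ± 0.20). These 3 genes, named only if the strains were separated, had signals well above the dim range. Cwc25, a gene for a splicing factor, read 653.3, 577.5 and 492.0 against 53.5, 89.7 and 127.1 (2.53 ± 0.31, adjusted p = 4.17e-05).

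Gal encodes galanin, a neuropeptide of lactotrophs that estrogens induce. It was the only called member of 16 measured estrogen-induced genes, next to 0.865% of all genes. The median difference of these 16 was -0.13, and 6 lay above 0. Its signal was 220.3, 173.0 and 275.3 in ACI and 518.1, 496.9 and 304.3 in COP, so that every COP array was above every ACI array. The difference of -0.92 ± 0.18 (adjusted p = 0.00775) lost its call without ACI 2, COP 1 or COP 2, with adjusted p values of up to 0.0873. Gabra4, a subunit of the GABA receptor channel, read 134.3, 141.9 and 58 in ACI and 284.3, 370.2 and 414.9 in COP (-1.61 ± 0.35). Its call was lost without ACI 3, COP 2 or COP 3, with adjusted p values of up to 0.157. Ccl6, a chemokine gene, read 112.2, 87.0 and 212.0 against 422.8, 451.1 and 337.8 (-1.53 ± 0.36, adjusted p = 0.0457). It lost its call without any 1 array other than ACI 3, with adjusted p values of up to 0.298. The summed signal of 15 leukocyte and macrophage markers was 4517.2 to 6681.8 in ACI and 6918.6 to 7409.1 in COP, whereas 12 of the 15 differences lay above 0 with a median of 0.27. The part of these markers in the Ccl6 and Lcn2 values was not tested. Oas1b, an interferon-induced gene of antiviral defense, read 54.9, 35.0 and 61.3 in ACI and 4.7, 3.6 and 1.2 in COP (1.78 ± 0.37, adjusted p = 0.0161), all within the dim range. The 20 other interferon-induced genes measured did not pass the test, the list median was -0.18, and the Oas1b call was lost without any 1 array other than ACI 2, with adjusted p values of up to 0.0907.

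Crocc, Cfap161 and Clic5 were higher in ACI, and Krt7, Krt23 and Kif15 were lower. Crocc, which encodes the ciliary rootlet protein rootletin, read 390.0, 311.5 and 128.9 in ACI and 11, 61.5 and 48.6 in COP (2.39 ± 0.46), and its call was lost without ACI 1, ACI 2 or COP 1, with adjusted p values of up to 0.0885. Cfap161, a gene of motile cilia, read 51.3, 47.5 and 78.0 against 5.6, 5.4 and 7.7 (1.73 ± 0.22, adjusted p = 8.61e-05). Clic5, a chloride channel protein of the cell cortex, read 57.7, 37.9 and 38.9 against 10.3, 8.1 and 6.3 (1.32 ± 0.25), with an adjusted p of 0.0686 without ACI control 1. The COP signals of these 3 genes were all at or below 61.5, within the dim range, and so were most of the ACI signals of Cfap161 and Clic5. The epithelial keratins were lower in ACI, Krt7 at 106.3, 124.4 and 110.8 against 391.5, 283.6 and 375.0 (-1.49 ± 0.33) and Krt23 at 71.3, 112.5 and 66.7 against 337.6, 371.2 and 176.4 (-1.61 ± 0.26). The Krt7 call was lost without any 1 of the 6 arrays, with adjusted p values of 0.0547 to 0.148, whereas that of Krt23 was kept in all 6 fits. Kif15, a kinesin motor of the mitotic spindle, read 30.6, 26.6 and 37.9 in ACI and 131.0, 134.8 and 131.9 in COP (-1.65 ± 0.25, adjusted p = 0.000685). Of 24 other genes of the cell cycle, 0 were called, next to 0.865% of all genes, while 3 had an unadjusted p under 0.05 in limma, next to 8.55% of all genes.

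The remaining leading genes were lower in ACI. Pdzk1ip1, a small membrane protein gene of epithelia, read 16, 18.5 and 7.7 in ACI and 315.0, 331.1 and 234.0 in COP (-3.37 ± 0.45, adjusted p = 0.000133). LOC100910237 read 5.2, 38.8 and 6.3 against 188.4, 203.6 and 167.1 (-2.77 ± 0.35). Spock3, a proteoglycan of the extracellular matrix, read 64.4, 65.6 and 87.2 against 285.4, 303.2 and 296.3 (-1.82 ± 0.35), and its call was lost without ACI 1, ACI 2 or COP 2, with adjusted p values of up to 0.0565. Each of these 3 was at or near the dim range in ACI and clearly measured in COP. Fndc3c1 read 3.0, 36.4 and 7.4 in ACI and 157.6, 48.8 and 377.0 in COP (-2.52 ± 0.58, adjusted p = 0.0361). Its COP arrays lay far apart, and its call was lost without ACI 1, ACI 3, COP 1 or COP 3, with adjusted p values of up to 0.231. Apart from the genes named below for their place in the genome, 26 named genes were called. Of these, 13 kept the call without each control array in turn, and 10 kept it in every other setting in which they were tested as well. A filter at the 60th percentile left out Pdzk1ip1 and Kif15. The 10 were Hba-a3, Cwc25, Crem, Dtx1, Lcn2, Pdzk1ip1, LOC100910237, Gsta4, Abca1 and Kif15.

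Gene lists for the cell types and pathways of the gland showed few differences. In 26 lists, 428 genes were measured and 6 of them were called, namely Hba-a3, Nr4a3 and Oas1b higher in ACI and Gal, Gsta4 and Lcn2 lower, next to 0.865% of all genes. Without 1 array the number of called members was 4 (ACI 1, ACI 2, COP 1 or COP 2) to 9 (ACI 3). List medians were between -0.50 and 0.47. Of 9 measured lactotroph markers 1 was called, and none was called of 7 for somatotrophs, 11 for gonadotrophs, 7 for thyrotrophs or 5 for corticotrophs and melanotrophs. None was called of 9 for folliculostellate and stem cells, 15 for leukocytes, 10 for endothelium or 11 for fibroblasts and matrix. The summed signal of the lactotroph markers was 46116 to 64606 in ACI and 50019 to 53951 in COP.

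Some lists leaned to 1 side without any called member. Among 30 genes of the mitochondrial respiratory chain, 2 lay above 0, the median was -0.14, and 0 were called, with 0 at an unadjusted p under 0.05 in limma, next to 8.55% of all genes. The ACI and COP arrays did not overlap for 9 of these 30, next to 16.5% of all genes. Among 9 neural lobe and nerve markers, 1 lay above 0, the median was -0.50, and 0 were called while 2 had an unadjusted p under 0.05 in limma. Oxt had the most negative difference of these (-2.01 ± 0.51, adjusted p = 0.0799). Gfap, a glial filament gene, was at 647.5 in COP control 3 and at 51.6 to 89.5 on the other 5 arrays. The summed neural lobe signal was 5617.1 to 6634.0 in ACI and 5937.1 to 9344.2 in COP, and its part in the called differences was not tested.

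**Figure D3:**
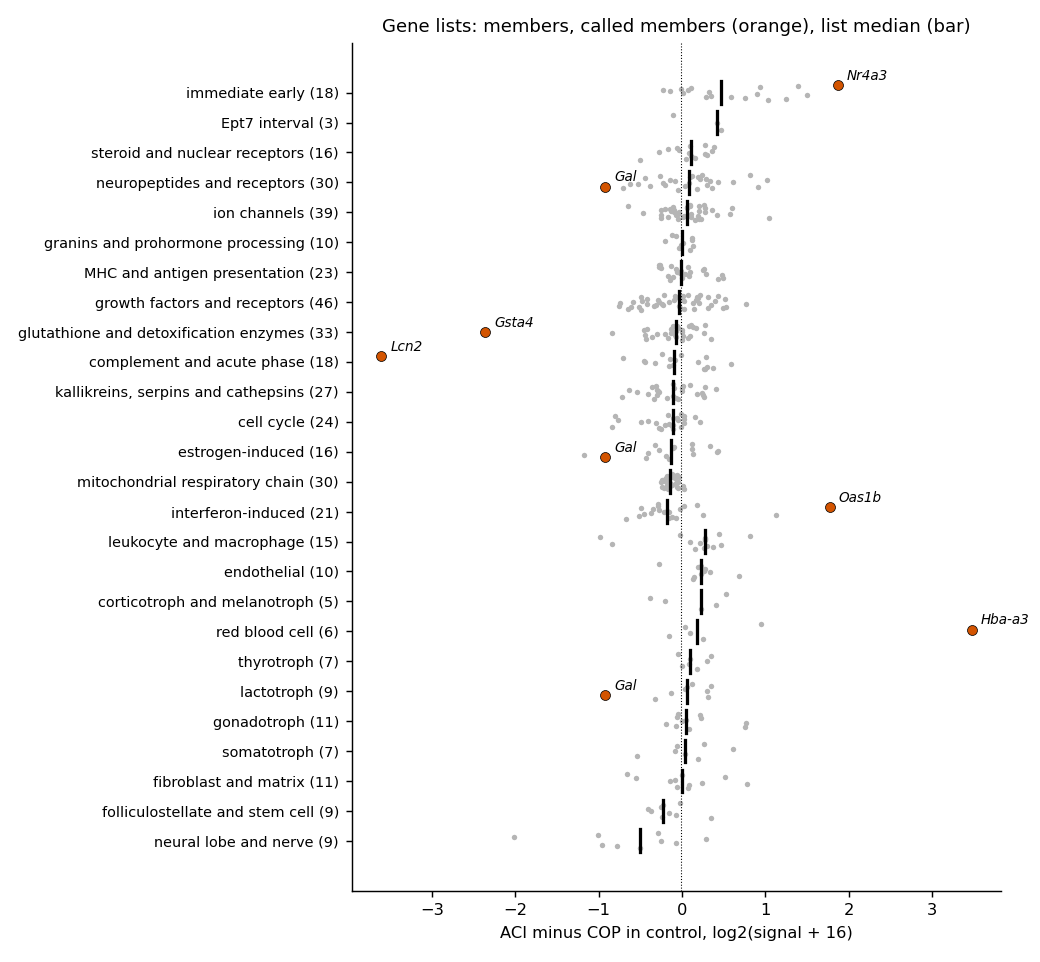
Each row is 1 gene list with its number of measured genes, the x axis is the ACI minus COP difference, small points are members, orange points are the 6 called members and bars are list medians. Gal stands in 3 lists, the immediate early list has the highest median at 0.47 and the neural lobe and nerve list the lowest at -0.50.

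The DES treated rats gave the same strain contrast in 8 other arrays, whose signals did not enter the control differences but did enter the shared estimate of spread behind the control calls. Between ACI and COP after DES, 908 probe sets were called, 2.93% of those tested. Of these, 282 were higher and 626 lower in ACI, whereas 535 were higher and 423 lower when each array was centered on its median. Of the 230 probe sets called in control, 112 were called in the same direction after DES, 3 in the opposite direction, and 115 were not called. The 112 are 48.7% of the control calls and 12.3% of the DES calls. The sign was the same for 197 of the 230. Of the 110 lower in ACI, 68 were called lower after DES as well, next to 2.02% of all probe sets, and of the 120 higher in ACI, 44 were called higher, next to 0.908%. The 230 were chosen by their control values, so nothing was read from how their sizes differ between control and DES.

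The test of the difference between the 2 strain contrasts called 87 probe sets in all (0.28%), of which 21 were among the 230. The control values that chose the 230 are part of this test. The 87 became 32 without ACI control 1, 43 without ACI control 2, 42 without COP control 1, 36 without COP control 2 and 35 without a variance trend in the fit. Hba-a3 was at 10687.8 to 14347.5 in ACI and 233.9 to 349.3 in COP after DES, with a difference of 5.35 ± 0.24, and the change of 1.87 was itself called (adjusted p = 0.0257). Gsta4 was called in the same direction after DES (-3.22 ± 0.15), as were Lcn2 (-3.08 ± 0.28), Abca1 (-2.45 ± 0.16) and Ip6k2 (1.66 ± 0.18). Crem was at 3926.4 to 5419.2 in ACI and 3833.0 to 6012.5 in COP after DES, with no call (-0.12 ± 0.21). Cfap161 read 256.1 to 373.0 and 316.5 to 412.9, and Kif15 83.4 to 112.8 and 84.0 to 120.0, so that the strains overlapped for both genes after DES. Gal reached 36473.3 to 44858.8 in ACI and 39696.0 to 50452.6 in COP, with no call (-0.12 ± 0.15). On ACI DES 1 and ACI DES 2 Gal was the brightest probe set, with highest signals of 36473 and 42249. Whether signals this near the top of an array still follow the amount of RNA was not tested. The change of the strain difference was not called for Gal (adjusted p = 0.19) nor for Nr4a3 (0.0674).

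**Figure D4:**
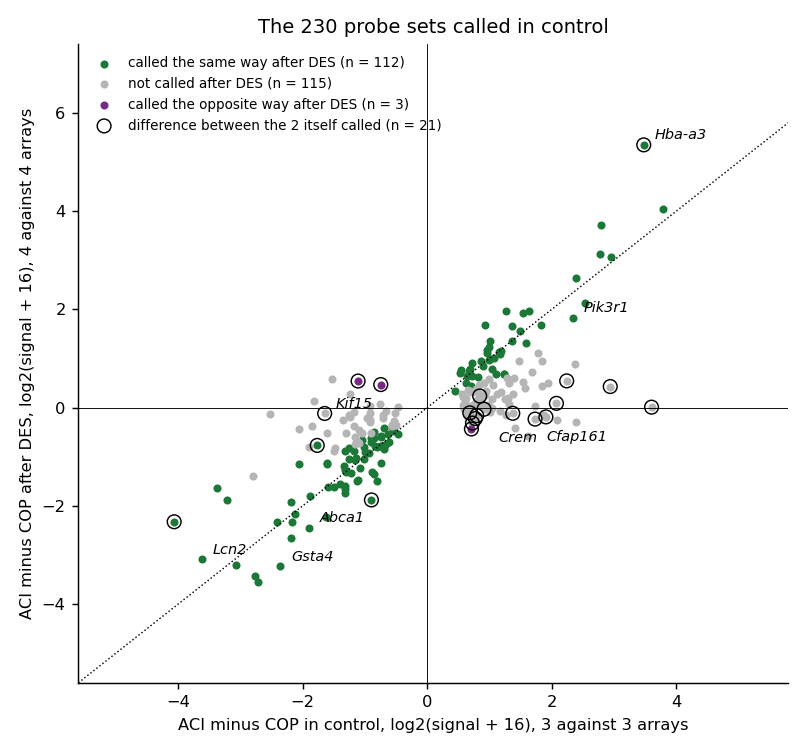
For the 230 probe sets called in control, the x axis is the ACI minus COP difference in control and the y axis the same difference after DES, both on log2(signal + 16), and the dotted line marks equal values. Green points are the 112 called the same way after DES, grey points the 115 not called, purple points the 3 called the opposite way, and rings mark the 21 for which the change of the difference was itself called.

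The BN controls give a further level for each probe set. Both comparisons with BN share arrays with that of ACI and COP, so their values are only set side by side. In control glands, 1308 probe sets (4.21%) were called between ACI and BN and 1108 (3.57%) between COP and BN. These numbers fell to 861 without ACI control 1, and to 732 without COP control 1 and 710 without COP control 2. For the 230, the BN mean was nearer to COP for 126 and nearer to ACI for 104. ACI alone was called against BN for 94, COP alone for 74, both for 15 and neither for 47. Lcn2 in BN was at 317.5 to 366.1, Gsta4 at 4597.0 to 4981.6 and Abca1 at 2666.9 to 3740.7, beside the COP values. Oas1b in BN was at 54.0 to 88.5 and Cfap161 at 76.2 to 79.8, beside the ACI values. Hba-a3 in BN, at 706.7 to 1373.8, lay between the strains. Pdzk1ip1, at 12.2 to 71.5, and Cwc25, at 26.2 to 56.1, were low in BN, as they were in ACI and in COP, respectively.

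Probe sets of the same gene were often not called alike. Of the 123 called genes, 45 had another probe set, and it was called in the same direction for 9, in the opposite direction for 2, and not at all for 35. One gene, Fam32a, had probe sets called in both directions. The number 9 became 3 without ACI control 1 or COP control 2, 5 without COP control 1, 2 with the ACI and COP control arrays alone, and 16 with the replicate number as a block. The 9 were Abca1, Cpeb4, Crem, Fam32a, Iqcc, Isca1, Nr4a3, Rgs2 and Tti2. A further 49 called probe sets were not the brightest of their gene. The brightest one was not called for 36 of these, and in 33 of the 36 the called difference lay outside its 95% interval. Taking called probe sets beside a brightest one that was not called favors such a gap. The difference between probe sets of a gene was not tested. Ddx5, an RNA helicase gene chosen after its values were seen, read 8937.8, 10425.9 and 9398.1 in ACI and 828.2, 888.2 and 2485.3 in COP by 1 probe set (2.95 ± 0.26). By its brightest probe set the means were 10734 and 11328 (-0.08 ± 0.10). Lsg1, a GTPase gene of ribosome assembly chosen in the same way, differed by 2.77 ± 0.26 by 1 probe set and by 0.10 ± 0.20 by the brightest. For such genes a difference in level and a difference in the sequence under the probes cannot be told apart in these signals, and the same holds for genes with a single probe set.

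**Figure D5:**
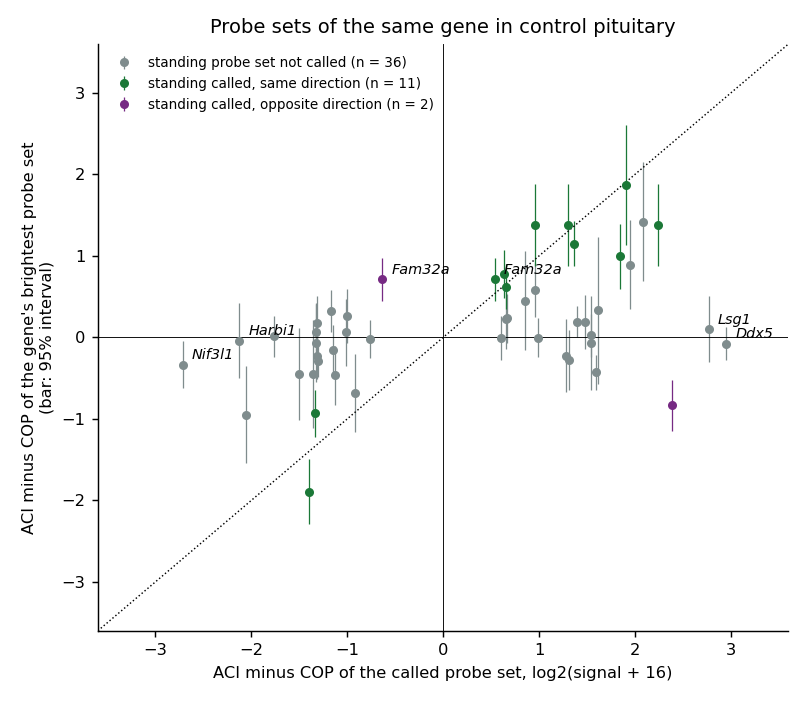
Each point is 1 of 49 called probe sets that is not the brightest of its gene, with its ACI minus COP difference on the x axis and that of the brightest probe set, with its 95% interval, on the y axis, and a dotted line at equal values. Most of the 36 grey points lie near 0 on the y axis, 11 green points are called in the same direction by both, and 2 purple points, Fam32a and Fubp3, in opposite directions.

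Few called genes had another called gene near them in the genome, although the share was above that of all genes. In RefSeq order, 1.64% of the 10 nearest measured genes around a called gene were called, and 0.87% around all 14195 placed genes. Of the 123 called genes, 18 (14.6%) had a called gene among these neighbors, as had 8.11% of all genes. Windows of 10 genes in a row held at most 3 called genes, which occurred at 2 loci. At the first, Tpm4, a tropomyosin gene of the actin skeleton, differed by 0.84 ± 0.09 (adjusted p = 8.8e-06). Its signal was 2365.7, 2699.9 and 2701.3 in ACI and 1454.7, 1447.5 and 1399.3 in COP. Calr3, a testis form of the chaperone calreticulin, and Fam32a stood in the same window and were also higher in ACI, by 0.95 and 0.71. At the second, Sfxn1, a mitochondrial serine carrier, and Nfil3, a transcription repressor, were higher in ACI by 1.06 and 0.85, and Thoc3, of the mRNA export complex, differed by -1.16. A further 60 windows held 2 called genes and were not ranked. Without ACI control 3 the share of called neighbors was 1%.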

How the data were processed

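Total RNA of 21 anterior pituitary glands was hybridized to 1-color Affymetrix arrays. The deposited table holds 1 intensity value per probe set and array, which the authors had summarized and scaled before deposit. The software for this step is not given in the sources used here. Every array had a mean near 500 after 2% of the probe sets were trimmed at each end, and values ran from 0.1 to 71813.9. No further scaling was applied.

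Of 31099 probe sets, 57 Affymetrix controls were left out. Intensities were analyzed as log2(signal + 16) with limma 3.58.1 in R 4.3.3, with 6 group means over all 21 arrays (strain by treatment) and a variance trend, and Benjamini-Hochberg adjustment ran over 31042 probe sets. Tests were two-sided. Spread between arrays is given as the standard error of the fit, and the number of arrays limits the precision. The fit was tested on simulated data. Platform annotation gave 1 symbol for 20826 probe sets, several for 436 and none for 9780. Symbols were updated through Entrez identifiers to RefSeq (GRCr8) for 20760, and 66 kept the older symbol. Each of 14217 genes was represented by its brightest probe set.

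Named genes were the 12 called genes with the most positive and the 12 with the most negative differences whose arrays did not overlap, up to 4 called members of each gene list, 11 fixed hormone and estrogen-response genes, and the genes of windows rich in calls. Other genes, such as Fos, Hbb, Oxt or Gfap, were chosen after their values were seen. Members and lists were chosen with earlier results of these data known. Alternatives covered the added constant, filters on dim probe sets, scaling, the fit, blocks, the threshold and leaving out arrays.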

Additional observations from a re-analysis of the deposited data

Results flagged for a closer look

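For 4 named genes, the strain difference after DES differed from that in control by the test of that difference (limma, Benjamini-Hochberg over all probe sets). The change was 1.87 for Hba-a3 (adjusted p = 0.0257), -1.97 for Cfap161 (adjusted p = 0.00264), -1.49 for Crem (adjusted p = 0.0462) and 1.53 for Kif15 (adjusted p = 0.0489), on log2(signal + 16). These genes were named for the size of their control difference, which is part of this test. That choice favors a smaller difference after DES, as was seen for Cfap161, Crem and Kif15. In 4 instances 1 DES array lay far from the other 3 of its group by Dixon's test, which marks about 1 in 20 groups by chance. These were a Crocc signal of 31.9 in ACI DES 1 and of 11.5 in COP DES 2, a Fndc3c1 signal of 35.1 in ACI DES 4 and a Myc signal of 885.0 in COP DES 1. Only the Myc signal lay above the dim range. The count was not compared with the number that chance gives over all groups tested. The control groups of 3 arrays are too small for this test.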

How the results depend on the processing

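All 230 probe sets called between ACI and COP in control kept their sign under every alternative in which they were tested. This was largely fixed in advance. For the 227 whose arrays did not overlap, leaving out 1 array cannot reverse the sign. Alternatives that change only the estimate of the spread leave the difference as it is. The number called (230, 120 higher and 110 lower in ACI) was 361, 188 and 173 with the number sets (arrays numbered 1 and 2 against 3 and 4) as a block, 128, 62 and 66 with only the ACI and COP control arrays in the fit, 1099, 577 and 522 with only arrays numbered 1 and 2, 132, 65 and 67 at an adjusted p under 0.01, and 131, 63 and 68 at a minimum of 2-fold. Leaving out 1 array gave 135 to 216 in all, 62 to 127 higher and 72 to 89 lower. With the replicate number as a replicate block it was 330. The deviations of same-numbered ACI and COP arrays correlated at 0.0826, 0.01 and 0.111, and those of other pairs at -0.116 to 0.0661. For each COP array, the ACI array of the same number correlated best. ACI 2, however, correlated better with COP 1 (0.0661) than with its own number. All of these values were small, and the numbers were not taken to pair the arrays. Whether arrays of the same number shared a step of handling was not tested. Calls against BN (1308 for ACI, 1108 for COP) were 2643 and 1741 with arrays 1 and 2 alone, and 861 to 1295 and 710 to 1177 without 1 array. After DES, 828 to 953 were called without 1 control array, 259 to 303 of them higher and 562 to 650 lower in ACI, and 535 were higher with median centering and 433 with the number sets (282 as reported), which moves the share of calls higher in ACI. The change of the strain difference (87 calls, 28 up and 59 down) gave 137, 43 and 94 with the filter at the 60th percentile, 197, 67 and 130 with the replicate block, 227, 76 and 151 with the number sets, 311, 102 and 209 with arrays 1 and 2, and 35, 15 and 20 without the variance trend. It gave 33 down with median centering, and 32 to 97, 10 to 30 and 18 to 67 without 1 array. Called list members numbered 31 (6 as reported) with arrays 1 and 2 and 4 to 9 without 1 array. The share of called neighbors was 5.28% with arrays 1 and 2 and 1.0% to 1.69% without 1 array. Genes with another probe set called in the same direction numbered 16 with the replicate block, 15 with the number sets, 2 with the ACI and COP control arrays alone, 51 with arrays 1 and 2, and 3 to 9 without 1 array. Over the 20 alternatives run for named genes, those of windows rich in calls aside, they lost the call 78 times and reversed 0 times. The lack of reversals was largely fixed in advance, since most were named only if their arrays did not overlap. The cause of the changes in calls was not tested.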
